A study of Homo sapiens with 8 samples.

Results

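The RNA bound to Argonaute 2 (Ago2) was compared with the total RNA of the same cells in ST486 cells that carried ectopic miR-155 (miR-155-ST486 cells). ST486 cells derive from a Burkitt lymphoma, a lymphoma of germinal centre B cells. The cells had been transduced with the retroviral vector MXW-PGK-IRES-GFP, in which the PGK promoter drives the insert and GFP marks the transduced cells, with the miR-155 precursor as the insert, and GFP+ cells had been sorted. The control cells (EV-ST486) had gone through the same transduction and sort with the empty vector, so that both carry the vector and GFP. From each of these cultures both the lysate RNA, called total (T), and the RNA recovered by immunoprecipitation (IP) of Ago2 were labelled once with Cy3 and once with Cy5. The samples described here are the 2 IP labellings and the 2 total labellings of miR-155-ST486 cells, 4 of the 8 samples in the series, and they were chosen by their labels for vector and fraction. The 4 samples of EV-ST486 cells are given beside them for some genes and lists. Where no value of EV-ST486 cells is given, the ratios may still differ.

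Ago2 is the protein that holds a mature miRNA and, through it, the transcripts that the miRNA pairs with. An antibody against Ago2 therefore pulls down miRNAs together with their target transcripts, and a transcript with many or strong sites is expected to be more abundant in the IP than in the total fraction. Pairing rests mainly on the seed of the miRNA, its bases 2 to 8, against sites that mostly lie in the 3′UTR. MiR-155 is known for its roles in B-cell activation and in B-cell lymphomas other than Burkitt lymphoma, in which its level is low. Members of the miR-17 family, which share a seed are known to be abundant in Burkitt lymphoma.

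The mature sequences of these miRNAs are shown because the target lists of these seeds were 2 of the 3 lists with the highest medians below. They were taken from RefSeq (GRCh38.p14) and are written 5′ to 3′ with the seed in capitals. MiR-155-5p and miR-155-3p are the arms of the precursor that the cells received, and both lie within the noncoding gene MIR155HG on the plus strand, at chr21:25573983-25574006 and chr21:25574022-25574043. The remaining 4 sequences are the members of the miR-17 family printed here.
hsa-miR-155-5p: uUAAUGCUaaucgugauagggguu
hsa-miR-155-3p: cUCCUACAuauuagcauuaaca
hsa-miR-17-5p: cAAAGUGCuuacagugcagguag
hsa-miR-20a-5p: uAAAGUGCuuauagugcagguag
hsa-miR-93-5p: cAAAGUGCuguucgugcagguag
hsa-miR-106b-5p: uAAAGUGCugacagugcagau
The target site that pairs with the miR-155-5p seed reads AGCATTA in DNA letters, and the site for the shared seed of the miR-17 family reads GCACTTT. Mature miRNAs and the 3′UTR sequences of the genes were not measured on these arrays and were not analysed here.

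The IP and total RNA of miR-155-ST486 cells had been hybridized together to 2 two-colour arrays, one with IP in Cy5 and total in Cy3 and the other with the dyes exchanged. Both labellings came from the same RNA, so n = 1 per fraction, no test was run, and the arrays differ from each other by technical error alone. The IP/T ratio is the ratio of the mean IP to the mean total signal on the log2 scale. Because the signals had been quantile-normalized, the IP/T ratio compares a transcript with the other transcripts of the 2 fractions, and the amount of RNA recovered with Ago2 is not part of it. No IgG precipitate is among these arrays. The miR-155 and EV arrays lie on 2 slides with 0 slides in common, so vector and slide cannot be told apart. Between the 2 arrays the log2 IP/T ratios of 7930 genes correlated with r = 0.93, where genes are not independent replicates, and differed by a median of 0.25.

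The cells carried the markers of their lineage. Of 20 B-cell and Burkitt markers on the array, 19 were well above background in both total labellings, among them CD79A, MME (CD10) and TCL1A. Of the T and NK cell markers 5 of 16 were, with a summed signal between 3078 and 3722.2 against between 424040.3 and 582859.6 for the B-cell markers, and of the myeloid markers 4 of 15 were, with a sum between 735.8 and 875.4. Of the stromal and epithelial markers 3 of 14 were (VIM, KRT8 and KRT18), with a larger sum, between 17804.2 and 22848.3. In bulk RNA fewer cells of a type and less RNA per cell cannot be told apart. The host gene of miR-155, MIR155HG, gave background-subtracted signals of 117.76 and 145.0 in total RNA of miR-155-ST486 cells and of 9.24 and 33.1 in that of EV-ST486 cells. It was well above background in both total labellings of miR-155-ST486 cells and in 0 labellings of EV-ST486 cells. Whether the probe lies within the transduced precursor was not determined.

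Most transcripts were found in the IP and total fractions at similar relative levels, and a minority was strongly enriched. The median IP/T ratio over the 7930 genes was 0.912, and the lower and upper quartiles were 0.681 and 1.35. A ratio of 2 or more was reached by 1093 genes (13.8% of the genes tested), 954 of them on both arrays. The upper tail was long: 430 genes (5.42%) reached 4, 146 (1.84%) reached 8 and 44 reached 16, and the maximum was 58.5. The lower tail was short. Depletion to 0.5 or less was found for 534 genes (6.73%), to 0.25 or less for 22 and to 0.125 or less for 0, and the lowest value was 0.182. Depletion depended more on the labelling than enrichment did, since 314 of the 534 genes were at most 0.5 on both arrays and 840 genes were so on the array with IP in Cy5 alone. It also depended on the scaling. Of the genes past either threshold 67.2% were enriched, against 80.8% (1283 enriched and 305 depleted) when the unquantiled log ratios of each array were centred on their median, and the median of all genes moved from -0.13 to 0.03 on the log2 scale. With normexp background correction and loess the share was 84.2% (416 and 78).

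**Figure D1:**
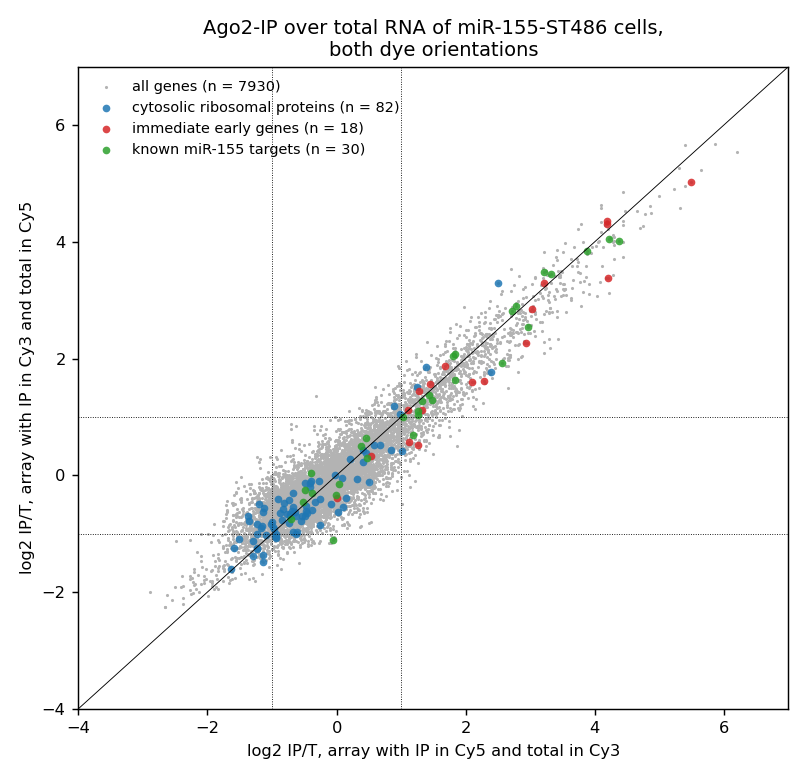
Log2 IP/T ratio of each of 7930 genes in miR-155-ST486 cells on the array with IP in Cy5 (x axis) and on the array with IP in Cy3 (y axis), with the 82 cytosolic ribosomal protein genes, 18 immediate early genes and 30 known miR-155 targets in colour and dotted lines at ratios of 0.5 and 2. Points follow the diagonal, the upper tail reaches further than the lower one, and the immediate early genes lie mostly beyond 2 on both arrays while most ribosomal protein genes lie below 1.

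The gene with the highest IP/T ratio was CD69, an early activation receptor of lymphocytes. Its normalized log2 signal was 13.59 (Cy3) and 13.68 (Cy5) in the IP fraction and 7.48 and 8.05 in the total fraction. Its IP/T ratio was 58.5, with 73.4 on the array with IP in Cy5 and 46.5 on the other. Both IP labellings lay far above both total labellings, with a wider gap than that between the labellings of a fraction. The authors' filter on agreement of the dyes and the choice of the gene by its ratio made such a gap certain. GPR137B, a lysosomal membrane protein, followed with log2 signals of 12.74 and 12.69 in IP and of 6.83 and 7.07 in total RNA, a ratio of 54.3. The third gene was NHLRC3, with 13.22 and 13.07 in IP, 7.67 and 7.55 in total RNA and a ratio of 46.3. DNAJB9, a co-chaperone of the endoplasmic reticulum, had 15.62 and 15.61 in IP against 9.96 and 10.39 in total RNA, and a ratio of 43.4.

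The other genes among the 10 with the highest ratios included regulators of proliferation and of the cytoskeleton. FAM222B reached a ratio of 38.9. BTG2, an antiproliferative protein that recruits the CCR4-NOT deadenylase, had log2 signals of 15.14 and 15.12 in IP and 9.62 and 10.12 in total RNA, a ratio of 38.3. CCNJ, a cyclin, had a ratio of 33.5 and CFL2, the actin-severing protein cofilin 2, one of 31.0. BOD1, which acts in chromosome biorientation at mitosis, had a ratio of 29.6, and MMD one of 26.6. In each of these 10 genes the lowest IP labelling lay above the highest total labelling, which the dye filter and their selection already required. The ratios of the same genes in EV-ST486 cells lay between 25.3 for MMD and 58.1 for CD69, with the total of GPR137B and NHLRC3 well above background in 1 of 2 labellings there.

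**Figure D2:**
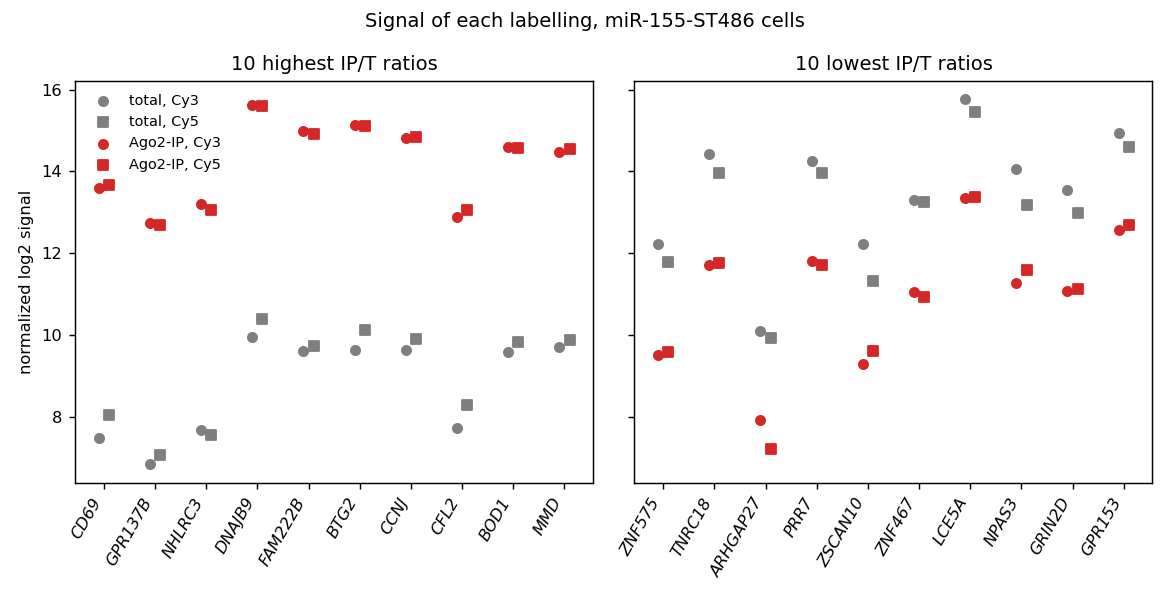
Normalized log2 signal of the 2 total and 2 Ago2-IP labellings of miR-155-ST486 cells for the 10 genes with the highest (left) and the 10 with the lowest (right) IP/T ratio among genes well above background in all 4 labellings and past 2-fold on both arrays. The ratios run from 58.5 for CD69 to 0.182 for ZNF575. That the fractions do not overlap in any of the genes follows from the dye filter and the choice of the genes. Levels of different genes are set by their probes and are not comparable.

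For 6 enriched genes the total fraction was not well above background, so that only a lower bound on the enrichment can be given. The bound set the mean IP signal against the total signal or, where that was higher, the lowest signal well above background, once on the deposited scale and once after loess and Aquantile scaling, and the lower of both is given. S1PR1, the sphingosine-1-phosphate receptor that guides lymphocytes out of lymphoid tissue, was at least 31.9-fold enriched. NFKBIZ, a nuclear member of the I-kappaB family, was at least 13.3-fold enriched, and ZNF280A at least 5.29-fold. The 2 probes of RAB12, a small GTPase of membrane traffic, gave bounds of 11.9-fold and 5.74-fold. STRIP2 and FCHO2 were at least 3.92-fold and 4.87-fold enriched. DGAT2, an enzyme of triglyceride synthesis, was the 1 depleted gene whose IP fraction was not well above background, and it was at least 1.27-fold depleted.

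The genes with the lowest IP/T ratios were of other kinds. ZNF575, a zinc finger gene, had log2 signals of 9.52 and 9.58 in IP and of 12.23 and 11.78 in total RNA, an IP/T ratio of 0.182 with 0.159 and 0.208 on the arrays. Both IP labellings lay below both total labellings, as the same filter and selection required. TNRC18 followed with 11.70 and 11.77 against 14.42 and 13.96, a ratio of 0.183, and ARHGAP27, a GTPase-activating protein, with a ratio of 0.1835. PRR7 had a ratio of 0.197, and 2 more zinc finger genes, ZSCAN10 and ZNF467, had ratios of 0.199 and 0.205. The remaining 4 of the 10 are genes known from epidermis, brain or as orphan receptors: LCE5A of the cornified envelope (0.212), the neuronal transcription factor NPAS3 (0.217), the NMDA receptor subunit GRIN2D (0.223) and the orphan receptor GPR153 (0.226). Each was measured by 1 probe, and their signals in total RNA were high, for LCE5A 15.77 and 15.45. Whether these probes detect the named transcripts alone was not determined. In EV-ST486 cells the same 10 genes had ratios between 0.279 (ARHGAP27) and 0.484 (NPAS3). A ratio of 0.25 or less was found for 22 genes (0.277% of all genes) in miR-155-ST486 cells, 8 of them on both arrays. In EV-ST486 cells it was found for 8 genes (0.101%). No gene was in both groups, which says little at such small shares. The 22 genes had a median ratio of 0.359 in EV-ST486 cells.

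Gene classes differed widely in their share of Ago2-bound transcripts. Of 43 lists with at least 5 measured members, 12 had a median log2 IP/T ratio at least 0.5 above the median of all genes and 1 had a median at least 0.5 below it. The higher lists were immediate early genes, the known targets of miR-17 and of miR-155, TGF-beta receptors and SMADs, cyclins with CDKs and their inhibitors, Polycomb genes, 3′UTR-binding regulators, the E2F and RB family, germinal centre transcription factors, KLF and SP factors, the miRNA machinery and C2H2 zinc finger genes. The lower list held the cytosolic ribosomal proteins, whose median lay 0.51 below that of all genes, just past the limit. It was no longer past it with centred log ratios, with normexp and loess, with the brightest probe of each gene and with the probe of highest IP/T ratio, which left 0 lower lists, and there were 2 lower lists with the array with IP in Cy5 alone and with the Cy3 labellings alone. The direction of all 13 lists against the median of all genes was the same under every scaling tried, although with normexp and loess only immediate early genes and miR-17 targets stayed 0.5 above it, and the KLF and SP factors fell to 0.22 above it on the array with IP in Cy3 alone.

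Immediate early genes, which are transcribed within minutes of a stimulus and encode short-lived transcripts and proteins, had the highest median, an IP/T ratio of 3.52 (3.70 and 3.06 on the arrays) over 18 measured members. Of these, 14 reached 2 (77.8%, against 13.8% of all genes), each on both arrays, and 0 were at 0.5 or less. BTG2 was the highest member. ZFP36 (tristetraprolin), which directs decay of AU-rich transcripts, had log2 signals of 13.38 and 13.23 in IP and of 9.03 and 9.02 in total RNA and a ratio of 19.4. The zinc finger transcription factors EGR1 and EGR2 had ratios of 18.9 and 13.8, with EGR1 well above background in 1 of the 2 total labellings. The phosphatase DUSP2 had a ratio of 9.55 and NR4A1, an orphan nuclear receptor, one of 3.87. JUN and JUNB, subunits of AP-1, had ratios of 1.80 and 1.85, below the threshold, and the lowest member BTG1, a close relative of BTG2, had 0.874. In EV-ST486 cells the list had a median of 3.39 with 13 of 18 past 2. ZFP36 had a ratio of 7.59 and IER5 one of 1.11 there, against 19.4 and 3.42 with miR-155.

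Known targets of miR-155 were enriched more widely than genes at large. Over 30 measured members of 39 the median IP/T ratio was 2.35 (2.45 and 2.27 on the arrays), 18 reached 2, 17 of them on both arrays, and 0 were at 0.5 or less. Of the list, 6 genes (DET1, TBRG1, TRIM32, HOMEZ, PSIP1 and JARID2) had been taken by the study from these samples to validation, so their counts are not independent evidence. The study drew a wider set of targets from the same samples, and which other list members belong to it was not determined. Without them 12 of 24 were past 2 with a median of 1.97. The highest member was SOCS1, an inhibitor of JAK-STAT signalling and a classical miR-155 target, with log2 signals of 13.13 and 13.17 in IP and 8.79 and 9.12 in total RNA and a ratio of 18.3. DET1, part of a CUL4 ubiquitin ligase, had 14.42 and 14.41 against 10.19 and 10.38 and a ratio of 17.5. The transcriptional repressor BACH1 had a ratio of 14.5, the mitotic kinase WEE1 one of 10.49 and the transcription factor CEBPB one of 10.2.

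Several of these targets were not past the threshold. The mismatch repair gene MSH6 had an IP/T ratio of 0.774. The lowest member was MYD88, the adaptor of Toll-like receptors, with log2 signals of 9.33 and 9.55 in IP and 10.25 and 10.08 in total RNA and a ratio of 0.604. RHOA, FOXO3, the phosphatase INPP5D (SHIP1) and FADD also lay below 1, and 8 of the 30 genes did so. In EV-ST486 cells 8 of the 30 targets reached 2 and the median was 1.33. SOCS1 and CEBPB were as highly enriched there, with ratios of 17.9 and 10.004, while BACH1 had 5.79, the TAK1 adaptor TAB2 2.73 against 7.13, PICALM 0.853 (IP well above background in 1 of 2 labellings) against 2.21 and the mTORC1 activator RHEB 1.52 against 3.80. Of the 30 genes 25 had a higher ratio with miR-155, 22 of them in both dye orientations (73.3%, against 27.6% of all genes), and the median quotient of the ratios was 1.64. A quotient of at least 1.5 was found for 13 of the 24 genes left without the 6 that the study took to validation, against 3.57% of all genes. The study's wider set of targets was selected on these samples by a higher ratio with miR-155 than with the empty vector. These 24 genes are therefore not independent of that selection. These differences between vectors were not tested.

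**Figure D3:**
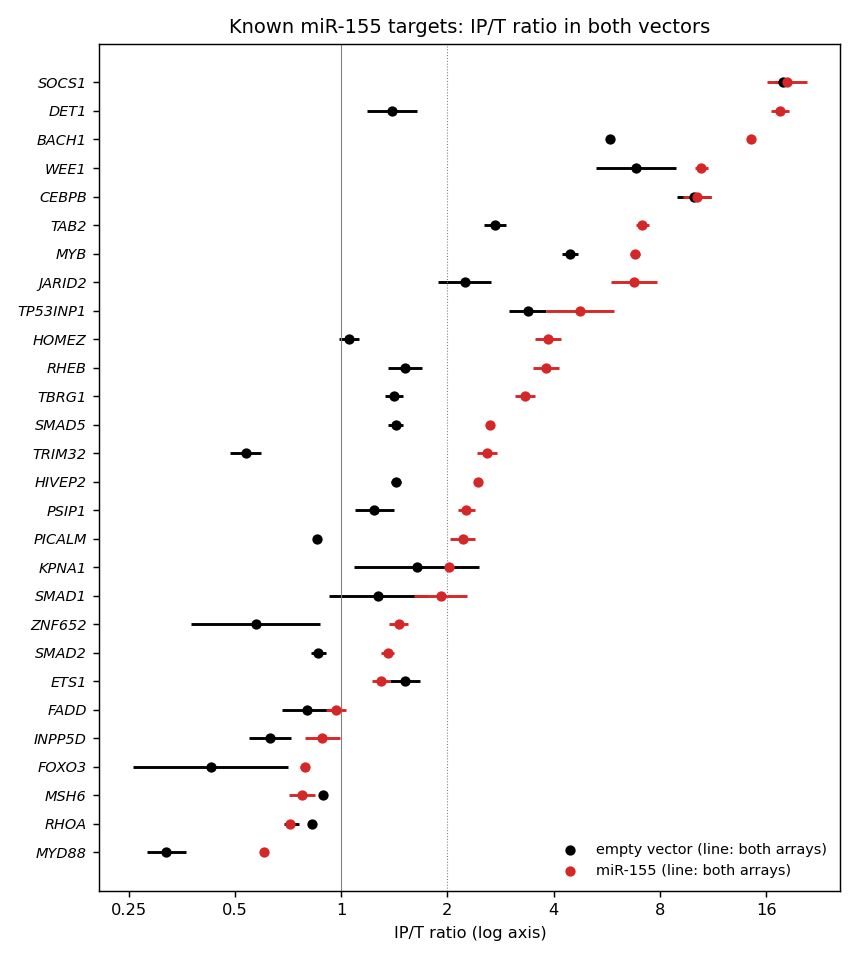
IP/T ratio (log axis) of 28 of the 30 known miR-155 targets in EV-ST486 (black) and miR-155-ST486 cells (red), with points at the mean of the labellings and lines from the value of one array to that of the other. DET1 moves from 1.39 to 17.5 and TRIM32 from 0.537 to 2.60, SOCS1 lies at 17.9 and 18.3, and MYD88 lies below 1 in both.

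Targets of the miR-17 family, whose seed AAAGUGC is shown above, were enriched to a similar degree. The 27 measured members had a median IP/T ratio of 3.08 (2.76 and 2.59 on the arrays). A ratio of 2 was reached by 16 (59.3%, against 13.8% of all genes), each on both arrays. At 0.5 or less were 0 (against 6.73%). ZNFX1, a helicase-domain zinc finger protein, had the highest ratio, 14.4, with 19.4 and 10.7 on the arrays. ZBTB4, a transcriptional repressor, had log2 signals of 11.58 and 11.40 in IP and 7.63 and 8.26 in total RNA, a ratio of 11.7. TGFBR2, the type II TGF-beta receptor, had 13.25 and 13.12 against 9.80 and 9.96, a ratio of 9.91. The CDK inhibitor CDKN1A (p21) had a ratio of 3.87. Other textbook targets were near 1: the retinoblastoma gene RB1 had a ratio of 1.11 and E2F1 one of 1.06. BCL2L11 (BIM) had the lowest value, 0.848, the median of 3 probes that ranged from 0.772 to 5.97. In EV-ST486 cells 14 of the 27 reached 2 and the median was 2.37. Among them 11 had a higher ratio with miR-155, and the median quotient of the ratios was 0.982. WEE1 and SMAD5 are on the lists of both miRNAs.

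Cell cycle regulators were among the most enriched classes. Of 20 cyclins, CDKs and CDK inhibitors 10 reached an IP/T ratio of 2, all on both arrays, 0 were at 0.5 or less, and the median was 1.91. CDKN1B (p27), an inhibitor of CDK2, had log2 signals of 13.82 and 13.93 in IP and 9.18 and 9.56 in total RNA, a ratio of 22.7. CCNE1 (cyclin E1), the partner of CDK2 at the entry to S phase, had 17.87 and 17.79 against 13.51 and 13.86, a ratio of 17.6. The activator and its inhibitor thus stood together at the top of the list. CDC25A, WEE1 and CCNB1 had ratios of 5.21, 10.49 and 2.67, while CDK4 and the INK4 inhibitor CDKN2D lay at 0.829 and 0.744 and CDC25B was lowest at 0.656. In the E2F and RB family 5 of 12 (41.7%) were past 2 and 1 (8.33%) was at most 0.5, with a median of 1.43. E2F5 (13.2), E2F7 (10.6) and E2F3 (9.75) were the highest, RB1 and RBL2 lay at 1.11 and 1.08, and the dimerization partner TFDP2 was depleted at 0.407. Replication licensing genes, which E2F factors activate, were not enriched as a class. Of 19 MCM, ORC and GINS genes 1 (5.26%, against 13.8% of all genes) reached 2 (GINS1, 2.88), and the median was 0.978.

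TGF-beta signalling and Polycomb genes also held strongly enriched members. Of 13 TGF-beta receptors, SMADs and their regulators 5 (38.5%, against 13.8% of all genes) reached 2 and 0 lay below 1. Their median was 1.91 (2.26 and 1.61 on the arrays). The corepressor TGIF1 had a ratio of 12.7, the type II receptor TGFBR2 one of 9.91, the ubiquitin ligases SMURF1 and SMURF2 ratios of 7.36 and 5.07 and SMAD5, an effector of BMP receptors, one of 2.64. The receptors ACVR2B and ACVR1B were lowest at 1.06 and 1.0997. SMAD5 had a ratio of 1.43 in EV-ST486 cells. Of 20 Polycomb genes, whose products place repressive marks on histones, 8 were past 2, all on both arrays, and 1 was at most 0.5, with a median of 1.53. CBX7, a reader of H3K27 methylation, had log2 signals of 12.35 and 12.43 in IP and 9.56 and 9.62 in total RNA, a ratio of 6.95. JARID2, which guides PRC2 to chromatin, had 11.53 and 11.63 against 8.65 and 8.99, a ratio of 6.76. The catalytic subunit EZH2 had a ratio of 1.48, its cofactors MTF2 and PHF1 had 3.18 and 3.75, and RING1 was depleted at 0.462. JARID2 had a ratio of 2.24 in EV-ST486 cells, and the Polycomb list had a median of 1.22 there.

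Transcripts of the silencing machinery itself were partly Ago2-bound. Of 25 genes for miRNA processing and silencing 7 reached 2, 6 of them on both arrays, and 1 was at 0.5 or less, with a median of 1.34. TNRC6A (GW182), the protein that links Ago2 to deadenylases, had log2 signals of 11.31 and 11.47 in IP and 7.99 and 8.24 in total RNA, a ratio of 9.65. DICER1, which cuts the precursor, had 12.23 and 12.09 against 9.28 and 9.25, a ratio of 7.46, and its partner TARBP2 had 3.63. The Argonautes lay closer to 1, with ratios of 1.56 for AGO1, 1.30 for AGO2 and 1.23 for AGO3, and the deadenylase subunit CNOT3 was lowest at 0.459. Regulators that bind 3′UTRs showed the same mixture, with 8 of 20 past 2, 1 at most 0.5 and a median of 1.498. ZFP36 and its relative ZFP36L2 had ratios of 19.4 and 7.66, the polyadenylation factor CPEB1 had 7.55, IGF2BP3 had 5.10, the Roquin genes RC3H1 and RC3H2 had 3.84 and 3.54, and FXR1 was depleted at 0.447. The ratios of these genes in EV-ST486 cells were similar for TNRC6A (12.0), DICER1 (7.06) and AGO2 (1.08).

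Of 232 C2H2 zinc finger genes 68 (29.3%, against 13.8% of all genes) reached 2, 60 of them on both arrays. At 0.5 or less were 8 (3.45%, against 6.73%), and the median was 1.31. Besides ZFP36 the highest were ZNF700 with 13.39 and 13.44 in IP and 9.01 and 9.39 in total RNA, a ratio of 18.6, and ZNF124 with a ratio of 17.5. The list also held 3 of the 10 genes with the lowest ratios, ZNF575, ZSCAN10 and ZNF467. Of 18 ZBTB factors 6 (33.3%) were past 2, with ZBTB4 and ZBTB7A at 11.7 and 5.07. Of 11 KLF and SP factors 4 (36.4%) were, with KLF2, KLF15 and KLF10 at 3.92, 3.88 and 3.62. KLF16 was lowest at 0.611 (probes at 0.263 and 1.42). Germinal centre and B-cell transcription factors had a median of 1.41 with 6 of 21 (28.6%) past 2 and 0 at most 0.5. BCL11A, a zinc finger factor needed for B-cell development, had log2 signals of 10.24 and 10.03 in IP and 6.96 and 7.23 in total RNA, a ratio of 8.23. MYB, a regulator of progenitor cells, had 17.44 and 17.30 against 14.59 and 14.63, a ratio of 6.79, and FOXP1 had 3.10. The lineage factors SPIB, TCF12 and IKZF1 lay at 0.591, 0.703 and 0.719. TCF4 (E2-2), an E protein, had a ratio of 3.06 with miR-155 and 0.993 with the empty vector.

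Cytosolic ribosomal protein genes had a median IP/T ratio of 0.639 (0.635 and 0.646 on the arrays) over 82 measured members. A ratio below 1 was found for 65 of them and at most 0.5 for 16 (19.5%, against 6.73% of all genes), 11 on both arrays. RPL12, a protein of the large subunit, had log2 signals of 14.87 and 14.80 in IP and 16.43 and 16.48 in total RNA, a ratio of 0.324, and RPL13 a ratio of 0.375. A few members went the other way, and 6 (7.32%, against 13.8% of all genes) reached 2. RPLP0 of the ribosomal stalk led with 19.37 and 19.37 in IP, 16.87 and 16.01 in total RNA and a ratio of 7.61 (5.63 and 9.82). RPL36A had 4.23 and RPL22 3.06. The IP value of RPLP0, 19.3681, was also that of the Cy3 IP labelling of EV-ST486 cells. Quantile normalization gives equal ranks equal values, so this agreement does not measure spread. Ribosomal protein genes have many processed pseudogenes, so that a probe may detect more than one locus. In EV-ST486 cells the median was 0.694, RPLP0 had a ratio of 5.34 and RPL12 one of 0.333.

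Over all genes 13.8% were past 2 and 6.73% at most 0.5. Mitochondrial ribosomal proteins had a median of 0.791, with 5 of 74 (6.76%) past 2 and 6 (8.11%) at most 0.5. MRPL20 had the highest ratio, 10.8, and MRPL23 the lowest, 0.403. Respiratory chain and ATP synthase genes had 4 of 78 (5.13%) in each direction, from ATP5F1C at 0.289 to NDUFC1 at 4.00, with a median of 0.841. Elongation factors had a median of 0.690 with 0 of 6 past either threshold. The initiation factors had 4 of 41 (9.76%) past 2 and 3 (7.32%) at most 0.5, with the helicase EIF4A2 at 4.21 and EIF2D at 0.390. The 17 aminoacyl-tRNA synthetases had a median of 1.04 with 4 (23.5%) past 2 and 2 (11.8%) at most 0.5. Of these YARS1 and KARS1 were depleted at 0.2504 and 0.268, while RARS1 had log2 signals of 16.35 and 16.24 in IP and 13.19 and 13.28 in total RNA, a ratio of 8.34. Proteasome subunits had a median of 0.741 with 2 of 45 (4.44%) past 2 and 6 (13.3%) at most 0.5, between PSMC5 at 0.371 and PSMD7 at 2.35. Glycolysis enzymes included GAPDH, often used as a reference gene, at 0.631 and PFKP at 3.37.

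Genes of antigen presentation and of the B-cell receptor were measured well but were not enriched. Of 18 genes for MHC class I and class II presentation 0 reached 2 (against 13.8% of all genes) and 16 lay below 1, with a median of 0.667. At 0.5 or less were 2 (11.1%, against 6.73% of all genes), 1 of them on both arrays. The invariant chain CD74 had log2 signals of 9.67 and 9.67 in IP and 11.29 and 10.92 in total RNA, a ratio of 0.370. B2M, the light chain of class I molecules, had the highest ratio at 1.66. Probes of HLA genes may detect more than one of them. Of 23 genes of B-cell receptor signalling 1 (4.35%) was past 2, the adaptor BCL10 at 2.28, and 0 were at most 0.5. CD79B, a signalling chain of the receptor, had 0.514 and the kinases SYK and BTK had 0.533 and 0.559. Histone genes lay near 1, with 2 of 57 (3.51%) past 2 and 0 at most 0.5 and a median of 1.09.

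Of 21 NF-kappaB pathway genes 7 (33.3%, against 13.8% of all genes) reached 2 and 0 were at 0.5 or less (against 6.73%), with a median of 1.14. TNFAIP3 (A20), an inhibitor of the pathway, had log2 signals of 10.60 and 10.74 in IP and 7.93 and 8.16 in total RNA, a ratio of 6.15. The ubiquitin ligase BIRC3 had a ratio of 6.63 and TAB2 one of 7.13, while NFKB1 and IKBKB lay at 0.913 and 1.00 and the inhibitor NFKBIB at 0.658. Of the SOCS family 2 of 8 genes were measured, SOCS1 with a ratio of 18.3 and CISH with one of 6.69 (9.91 and 4.51 on the arrays). Among 16 interferon-stimulated genes IRF9, a subunit of the ISGF3 complex, had 16.95 and IFIT5 7.48, and ISG15, a ubiquitin-like modifier, and USP18, the protease that removes it, were depleted at 0.435 and 0.450. In the BCL2 family 4 of 17 (23.5%, against 13.8% of all genes) were past 2, 2 of them on both arrays. At most 0.5 were 3 (17.6%, against 6.73%), 1 of them on both arrays. BCL2L12 had 5.09, MCL1 2.57 and BCL2 2.22. The effector BAX was the lowest at 0.231, with 9.82 and 10.14 in IP and 12.41 and 11.78 in total RNA. In the p53 pathway 5 of 14 (35.7%) were past 2, among them the death receptor FAS at 6.80 and TP53INP1 at 4.74.

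Of 31 F-box proteins, the substrate receptors of SCF ubiquitin ligases, 9 (29.0%, against 13.8% of all genes) were past 2 and 0 were at most 0.5. FBXW7, the receptor for cyclin E, had log2 signals of 13.71 and 13.61 in IP and 10.37 and 10.5001 in total RNA, a ratio of 9.34. FBXO10 had a ratio of 8.16. Of 27 TRIM ligases 2 (7.41%) were past 2, TRIM36 at 9.04 and TRIM32 at 2.60, and 3 (11.1%) were at most 0.5. Of 30 ubiquitin-specific proteases 8 (26.7%) were past 2, led by USP12 (11.5, with 1 total labelling well above background) and USP31 (6.50). Of 30 ubiquitin-conjugating enzymes 4 (13.3%, near the 13.8% of all genes) were past 2, led by UBE2W at 7.67. In that list 5 (16.7%, against 6.73% of all genes) were at most 0.5, and UBE2L6 was lowest at 0.300. RAB GTPases had 8 of 30 (26.7%) past 2 and 0 at most 0.5, with RAB23 at 4.89 next to RAB12. Of 122 solute carriers 24 (19.7%, against 13.8% of all genes) were past 2 and 8 (6.56%, against 6.73%) were at most 0.5. The thiamine transporter SLC19A2 had a ratio of 8.16, and the ADP/ATP carrier SLC25A4 and the oxoglutarate carrier SLC25A11 of mitochondria lay at 0.418 and 0.342.

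The Ago2-bound genes of miR-155-ST486 and EV-ST486 cells were largely shared. In EV-ST486 cells 1066 genes (13.4%) reached 2 and 582 (7.34%) were at 0.5 or less. The enriched genes had 929 in common, 85.0% of those with miR-155 and 87.1% of those with the empty vector, and those that reached 8 had 126 in common, 86.3% and 83.4%. The depleted genes shared 365, 68.4% and 62.7%. Among the 146 genes that reached 8 with miR-155 the median ratio in EV-ST486 cells was 12.4. Of the 1093 enriched genes 39 had a ratio at least 2-fold higher than in EV-ST486 cells and 10 had a ratio below 1 there.

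Among genes well above background in all 8 samples, the ratio with miR-155 exceeded that with the empty vector most in DET1, TRIM32, PSKH1, IER5 and TCF4. DET1 had log2 signals of 14.42 and 14.41 in IP and 10.19 and 10.38 in total RNA with miR-155, a ratio of 17.5 (18.6 and 16.5), and a ratio of 1.39 (1.64 and 1.18) with the empty vector, a quotient of 12.6. TRIM32, a ubiquitin ligase, was on opposite sides of 1, with 2.60 (2.77 and 2.43) against 0.537 (0.486 and 0.594). PSKH1, a serine kinase, had 11.7 (16.3 and 8.42) against 3.33 (5.21 and 2.13). IER5, an immediate early gene, had 3.42 against 1.11. In the other direction the quotients lay closer to 1, at 0.443 for IRX3, 0.448 for NPAS3, 0.495 for PARD6G and 0.525 for both TNRC18 and CSNK1E (CSNK1E with ratios of 0.623 and 1.48 on the miR-155 arrays and between 0.777 and 2.34 over its 3 probes). The slides cannot be told apart from the vectors here, and none of these differences was tested.

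**Figure D4:**
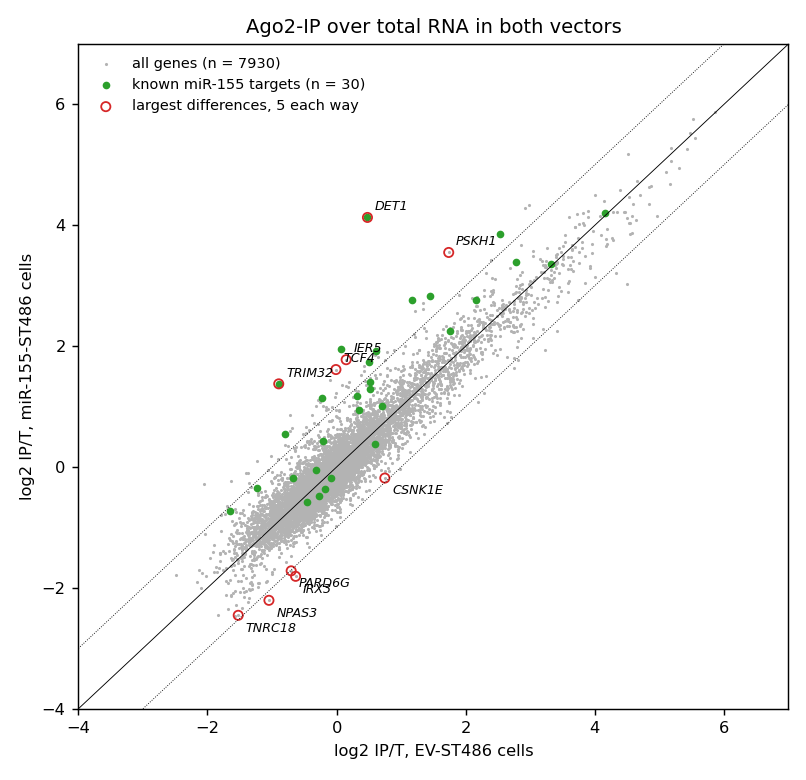
Log2 IP/T ratio of 7930 genes in EV-ST486 cells (x axis) and in miR-155-ST486 cells (y axis), with the 30 known miR-155 targets in green, the 5 genes with the largest difference in each direction among those well above background in all 8 samples ringed and dotted lines at a 2-fold difference. Most genes lie within the dotted lines, and DET1, at 1.39 and 17.5, lies furthest from the diagonal.

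Probes of the same gene did not always give the same answer. Of 1960 genes with several probes 56 had a probe that reached 2 and another below 1. TBRG1, which encodes the growth inhibitor NIAM, had a median ratio of 3.32 over 2 probes at 0.952 and 11.6. PSIP1 (LEDGF), a chromatin-binding protein, had 2.26 over 2 probes at 0.524 and 9.78. For both genes the direction was therefore set by the probe, and with the brightest probe the log2 IP/T ratio was -0.07 for TBRG1 and -0.93 for PSIP1. The paper reports that the brighter TBRG1 probe detects the NIAM transcript together with a noncoding transcript that lacks a miR-155 site. The other probe detects the NIAM transcript alone, and only that probe was enriched. The median of TBRG1 therefore mixes transcripts, and its brightest probe does not measure NIAM alone. For PSIP1 the paper shows the 3′UTR of the isoform that holds the miR-155 sites and reports that miR-155 lowered its luciferase reporter. Which PSIP1 probe detects that isoform was not determined. The 2 probes of TRIM32 gave 2.104 and 3.20, and those of HOMEZ, a homeobox leucine zipper protein, gave 2.95 and 5.07 with a median of 3.87.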

How the data were processed

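Total and Ago2-IP RNA of the cells with miR-155 and with the empty vector was measured on 4 Agilent 44k arrays of 45015 spots. The intensity values that the authors deposited had been background-subtracted and dye-normalized by the scanner software (Feature Extraction, version 10.5.1.1 in the headers). The deposited log2 values of 14453 probes were made by the authors in GeneSpring by quantile normalization and by filters on detection and on agreement of the dyes; they matched the intensities of their channel with r of at least 0.9996. These log2 values were used. Detection differed between channels, with between 15150 and 21325 of 41000 probes well above background in miR-155-ST486 cells; 13485 of the deposited probes were so in all 4 channels, and 0 spots were saturated. The number of arrays limits the precision.

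Symbols came from the RefSeq accession of the probe (GRCh38.p14 tables, names only), which gave 1 symbol to 10412 probes of 7930 genes. A gene's value was the median of its probes. Genes were called enriched at an IP/T ratio of 2 or more and depleted at 0.5 or less. The gene lists and members were chosen with earlier results of these data known. Named were the 10 genes at each end, the 2 highest and 2 lowest members of lists, the 5 largest differences from EV-ST486 cells each way among genes well above background in all 8 channels and genes of the study; other list members were named after their values were seen. Alternatives covered scaling, background, detection, choice of probe, threshold, flagged spots and single arrays or dyes. The procedure was tested on simulated data. Python 3.11.15, pandas 2.3.3, R 4.3.3 and limma 3.58.1 were used. Protein length and zinc finger number were not analysed here. The values of a few genes are not reported here.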

Additional observations from a re-analysis of the deposited data

Results flagged for a closer look

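TRIM32 had an IP/T ratio above 1 on both arrays of miR-155-ST486 cells and below 1 on both arrays of EV-ST486 cells, 2.5964 (2.77 and 2.43) against 0.537 (0.486 and 0.594). The difference was not tested, and slide and vector cannot be told apart. The study had already chosen TRIM32 from these samples for its higher ratio with miR-155, so the flag is not independent of that choice. The paper also reports that a miR-155 precursor lowered the signal of a TRIM32 luciferase construct.

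MIR155HG is not among the probes with deposited log2 values, but its processed signal reached 145.0 in total RNA of miR-155-ST486 cells (Cy5), above the 33.1 of the same dye in EV-ST486 cells. In the IP fraction of miR-155-ST486 cells its signal was 63.01 (Cy3) and 76.65 (Cy5), the latter not well above background. On the array with IP in Cy3 the ratio of the processed signals, which were not quantile-normalized, was 0.435.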

How the results depend on the processing

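With 1 RNA sample per fraction, only technical error could be seen. The count of enriched genes lay between 1042 and 1166 with single arrays or single dyes and was 416 with normexp background correction and loess and 816 when, chosen after seeing the data, 33 spots with a local background above 500 were also given another background. The count of depleted genes, 534, depended more on the processing: it lay between 455 and 840 with single arrays or dyes and was 314 when 2-fold was asked of each array, 328 with the threshold set relative to the median of all genes, 305 with centred log ratios, 78 with normexp and loess and 120 with replaced backgrounds. The lists higher than all genes, 12, were between 13 and 15 with single arrays or dyes, 2 with normexp and loess and 8 with replaced backgrounds. The lists lower than all genes, 1, were 1 to 2 with single arrays or dyes, 2 with normexp and replaced backgrounds, and 0 with centred log ratios, with normexp and loess, with the brightest probe of a gene and with the probe of highest IP/T ratio. The cause of these changes was not tested. Of the genes called enriched or depleted, reversed were PSIP1 (log2 IP/T of -0.93 from the rebuilt scanner values and with the brightest probe) and TBRG1 (-0.0709 with the brightest probe). Over the genes named, 1945 values under alternatives stayed within the spread between the labellings, 646 moved beyond it and 3 reversed. Of the values beyond that spread, 19 of 8 genes lay on the other side of 1, among them BCL2L11 (log2 of 2.58), CSNK1E (1.23) and KLF16 (0.50) with another probe, and 15 of 6 lists lay on the other side of all genes, the furthest the BCL2 family (0.38); none of these lists had been called. Low signals limit the ratios of dim genes. Bounds are given where 0 labellings of a fraction were well above background, and EGR1 and USP12 had 1 of 2. No paired analysis was possible because each fraction was 1 RNA sample; IP and total were already compared within arrays.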
